A study of Mus musculus with 4 samples.

Results

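Alveolar type 2 (AT2) nuclei were examined in single-nucleus RNA-Seq of lungs from 2 WT mice and 2 VEcad-TRF2DN-Tg (Tg) mice. The WT mice were of strain C57/BL6J, and in the Tg mice, kept as heterozygotes on the same background, the VE-cadherin promoter drives a dominant-negative form of TRF2, a protein that protects telomeres, in endothelial cells (ECs). Mice of both genotypes were 8 to 9 weeks old and, as the study states, were exposed to chronic hypoxia, with no normoxic group among these libraries. The transgene is driven in ECs and not in the epithelium. A barcode of the unfiltered count matrices was taken as an AT2 nucleus when it had at least 1500 unique molecular identifiers (UMIs, each 1 captured transcript), at most 2 UMIs of the leukocyte gene Ptprc and at most 3 UMIs in all of the EC genes Pecam1, Cdh5, Tek and Ptprb. It also had to hold at least 4 of 8 AT2 marker genes, with a summed share of at least 1.5 times that in the free RNA. Free RNA means here the sum of the barcodes of 300 to 800 UMIs of the same matrix. These were taken as droplets without a nucleus, which was not tested. They numbered 7688 and 10371 in WT and 18387 and 2732 in Tg mice. From 800 to below 1500 UMIs there were more in every mouse, 43348 and 22414 in WT and 36973 and 29332 in Tg mice. By this rule 26608 of 134745 barcodes of 1500 or more UMIs were AT2 nuclei, 19.7% of them: 4954 and 6413 nuclei of the WT and 6142 and 9099 nuclei of the Tg mice.

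AT2 cells are the cuboidal cells of the alveolar epithelium. They make surfactant, a mixture of phospholipids and the proteins SP-A, SP-B, SP-C and SP-D, store it in lamellar bodies and secrete it into the air space, where it lowers surface tension. They are also the progenitors of alveolar type 1 (AT1) cells, the flat cells of gas exchange, and after injury they pass through a transitional state marked by keratins such as Krt8. Among the 8 genes of the rule, Abca3 encodes the transporter that fills lamellar bodies with phospholipid, Lamp3 a protein of their membrane and Sgpp2 a phosphatase of sphingosine 1-phosphate.

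The AT2 nuclei of the Tg mice were deeper than those of the WT mice. The median nucleus held 2072 and 2033 UMIs in WT and 2540 and 2853 UMIs in Tg mice, and a median of 1406 and 1460 against 1534 and 1810 genes was detected. Summed over the nuclei of a mouse, the AT2 libraries held 12926674 and 17971389 UMIs in WT and 17802642 and 30345714 UMIs in Tg mice. Levels are given as CPM, the UMIs of a gene in 1000000 UMIs of that sum. In the WT mice 46.5% and 47.5% of the AT2 nuclei lay between 1500 and 2000 UMIs, against 23.6% and 21.5% in the Tg mice. In this range the summed AT2 genes outside the rule stood at 6404 and 8084 CPM in WT and 19418 and 17786 CPM in Tg AT2 nuclei. In the other barcodes of this range they stood at 5539 and 7740 CPM in WT and 12406 and 15788 CPM in Tg mice. Mitochondrial genes held a median of 0.0639% to 0.352% of the UMIs. The same barcode sequence occurred among the AT2 nuclei of a pair of mice 5 to 24 times. The medians, genes per nucleus and mitochondrial shares of the genotypes did not overlap. At 2500 or more UMIs 30 of the 32 genes named and called below were called, and 31 in the matched nuclei described next. Both sets are parts of the same AT2 nuclei, and the genes were chosen as called in the same mice. These counts are therefore a description, and the part of depth in the calls was not tested.

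The rule set the WT mice a higher marker share than the Tg mice. The 8 markers took 0.223% and 0.207% in WT and 0.0942% and 0.136% in Tg mice of the free RNA UMIs, so that a WT barcode had to carry more of them. The median AT2 nucleus held 2.21 and 2.11 against 6.02 and 3.73 times the share of its free RNA. Between 1.5 and 1.6 times, just inside the rule, there were 406 and 734 nuclei in WT and 26 and 174 nuclei in Tg mice. In these, the AT2 genes that the rule did not use stood at 0.969 and 0.885 against 0.360 and 0.506 times the free RNA. Over all members they stood at 1.20 and 1.06 in WT and 0.708 and 0.680 in Tg mice times the free RNA. Just outside, between 1.4 and 1.5 times, 587 and 765 against 18 and 155 barcodes stood at 0.912 and 0.894 against 0.356 and 0.478 times. Members and non-members thus passed into each other without a step at this threshold.

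Free RNA was estimated, from the markers of other cell types, to make up 63.5% and 75.6% in WT and 59.0% and 64.4% in Tg mice of the UMIs of the AT2 nuclei. These are medians over the markers. Their quartiles were 58.1 to 72.8% and 63.6 to 87.1% in WT and 38.6 to 88.4% and 48.2 to 83.3% in Tg mice. Since 1 fraction per mouse was subtracted from every gene, genes with a smaller free RNA part lost too much. The club cell markers stood at 56.2% and 62.0% of the free RNA in WT and 29.5% and 34.2% in Tg AT2 nuclei. UMIs given below as left after subtraction are counts, not scaled to the sums. The free RNA level of a gene is therefore plotted or given beside many of the AT2 levels below. As a second definition, chosen after the data had been seen, AT2 nuclei were also taken at 2500 or more UMIs and at the highest of the 4 marker thresholds in every mouse. These matched nuclei numbered 1821 and 2036 in WT and 2407 and 4572 in Tg mice, at medians of 3501 and 3976 against 3177 and 3637 UMIs, and their free RNA estimate was 47.9% and 53.7% against 50.1% and 55.4%. Medians and estimates of the genotypes overlapped in the matched nuclei.

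**Figure D1:**
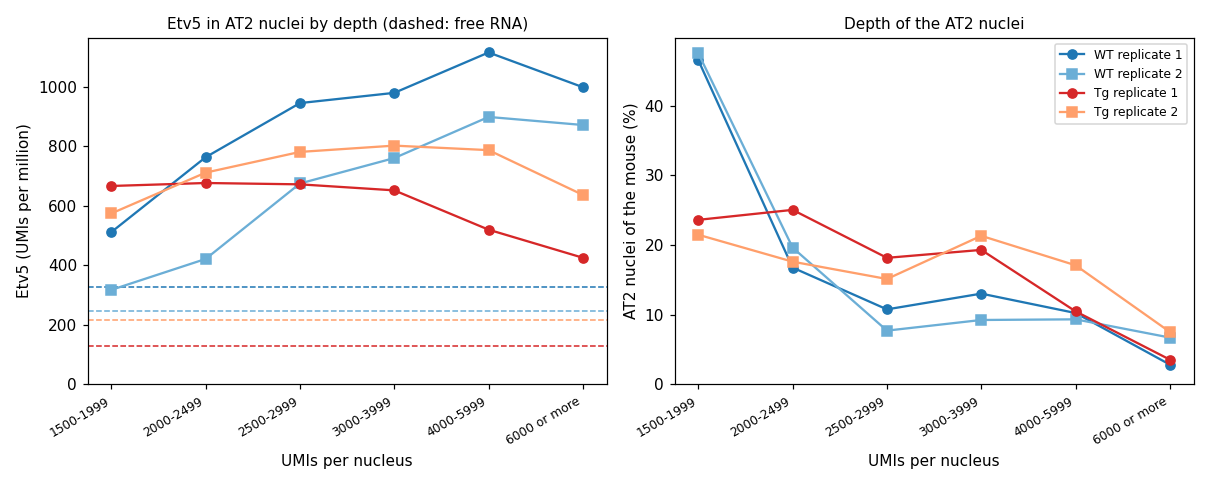
Left, the level of Etv5 (CPM) in AT2 nuclei by UMIs per nucleus for each mouse, with its free RNA level as a dashed line. Right, the percentage of the AT2 nuclei of a mouse in each depth bin. Below 2000 UMIs Etv5 was at 511 and 317 in the WT mice, nearer to their free RNA than the 666 and 574 of the Tg mice.

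The plot of Etv5 by depth gives the levels of a gene that the rule did not use. Etv5 encodes an ETS factor downstream of Fgf signaling that maintains AT2 cells. Between 4000 and 6000 UMIs it stood at 1115 and 899 CPM in WT and 519 and 787 CPM in Tg mice, and the order of the genotypes was then the opposite of that below 2000 UMIs.

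Whether the nuclei carry AT2 identity was checked with genes outside the rule. Levels in AT2 nuclei, in AT1 nuclei (9574 barcodes chosen by a rule of the same form with 8 AT1 markers), in the other barcodes of 1500 or more UMIs and in the free RNA are a description, since the rule chose the nuclei by expression. Among the 12 genes most enriched over the other barcodes, at 100 CPM or more in every mouse, were Tmem132d, Slc24a4, Etv5, Nkd1, Itga9, Snhg11, Tinag, Bmp1, Hc, Ppp1r14c and Ank3. The AT2 levels of these 11 were between 2.50 and 7.97 times those of the other barcodes and above the free RNA in every mouse.

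Etv5 (ENSMUSG00000013089) stood at 829 and 615 CPM in WT and 618 and 729.7 CPM in Tg mice in AT2 nuclei. In AT1 nuclei it stood at 193 and 165 against 56.7 and 142 CPM and in the free RNA at 325 and 246 against 127 and 216 CPM, below the AT2 nuclei of the same mouse in all 4 mice. Hc, which encodes complement component C5, stood at 1208 and 876 CPM in WT and 1063 and 999.5 CPM in Tg mice, 3.27 to 7.95 times its level in AT1 nuclei. Ank3, which encodes the membrane scaffold ankyrin-G, had the highest level of the 11, with 6026 and 5292 CPM in WT and 5512 and 5792 CPM in Tg mice. Itga9, the integrin alpha 9 chain, was at 917 and 1014 CPM in WT and 1012 and 1017 CPM in Tg mice, and the Wnt feedback inhibitor Nkd1 at 287 and 272 CPM in WT and 245 and 217 CPM in Tg mice. Bmp1, a proteinase that trims procollagens, was 3.25 to 8.47 times higher in AT2 than in AT1 nuclei. None of these 11 genes passed the genotype test given below, which 5.95% of all genes passed, with log2 fold changes between −0.27 and 0.17. They were chosen for a high ratio in every mouse, which favors genes without a genotype change, so that this is a description.

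The genes of surfactant and its recycling stood less far above the other barcodes. Slc34a2, the phosphate transporter of the AT2 apical membrane, was at 2244 and 2424 CPM in WT and 2471 and 2577 CPM in Tg mice, 1.80 to 3.80 times the other barcodes. Sftpb (SP-B) was at 1258 and 1638 CPM in WT and 2552 and 2164 CPM in Tg mice, 1.87 to 3.40 times the other barcodes and 1.44 to 2.16 times the free RNA. Lpcat1, which remodels surfactant phospholipid, was at 1.93 to 3.09 times and the protease gene Napsa at 1.82 to 2.81 times the other barcodes.

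Sftpc, which encodes SP-C and is usually taken as the defining AT2 transcript, did not separate the nuclei. It was counted at 831 and 1882 CPM in WT and 6711 and 5589 CPM in Tg mice in AT2 nuclei, only 1.11 to 1.26 times the other barcodes. In the free RNA it stood at 1092 and 2454 against 15627 and 12937 CPM, so that the AT2 nuclei held 0.429 to 0.767 times the free level in the 4 mice. Sftpa1 (SP-A) was at 0.515 to 0.904 times and Muc1, a membrane mucin, at 0.560 to 0.672 times the free RNA. For these 3 transcripts the level in AT2 nuclei was below that of the free RNA in every mouse.

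**Figure D2:**
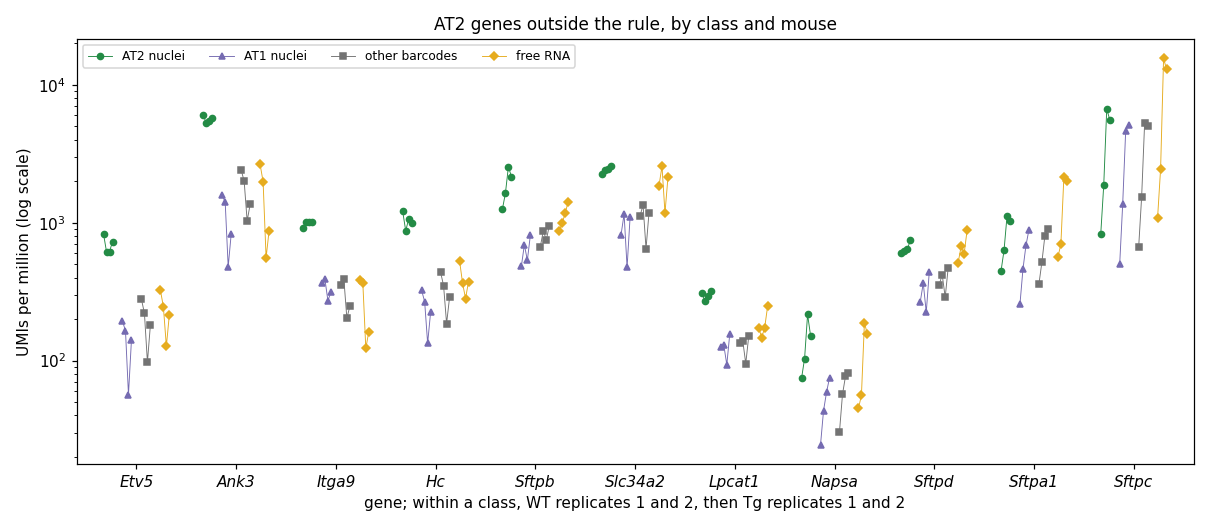
Levels (CPM, log axis) of 11 AT2 genes outside the rule in AT2 nuclei, AT1 nuclei, the other barcodes and the free RNA; the 4 joined points are WT replicates 1 and 2, then Tg replicates 1 and 2. From Etv5 to Hc the AT2 nuclei lie above every other class of the same mouse, while for Sftpa1 and Sftpc the free RNA lies above the AT2 nuclei.

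The promoters of the AT2 genes were searched for the core motifs of NKX2-1, FOX and ETS factors, families that control lung epithelium, since the selection rests on genes that are on together in these cells. RefSeq windows (build GRCm38.p6, 250 bases before to 50 after a gene start) were found for 22 of 29 AT2 genes, 25 windows in all, and both strands were searched. The NKX2-1 core CAAGTG, which reads CACTTG on the other strand, was in 3 windows, 12%, against 13.6% of all 32851 windows. The FOX core TGTTTAC, with GTAAACA on the other strand, was in 2 windows, 8.0%, against 3.65%, and the ETS core CCGGAAG, with CTTCCGG on the other strand, in 1 window, 4.0%, against 8.86%. No match of one motif overlapped a match of another, a match is not a binding site, and with 25 windows the shares differ by 1 or 2 windows. The windows with the SP-A gene's pair of NKX2-1 cores and with the 2 FOX cores are shown, 5′ to 3′ on the strand of the gene, with the match in capitals: Sftpa1 (chr14:41131538-41131837, plus strand), Etv5 (chr16:22439521-22439820, minus strand) and Lamp3 (chr16:19706316-19706615, minus strand).
Sftpa1: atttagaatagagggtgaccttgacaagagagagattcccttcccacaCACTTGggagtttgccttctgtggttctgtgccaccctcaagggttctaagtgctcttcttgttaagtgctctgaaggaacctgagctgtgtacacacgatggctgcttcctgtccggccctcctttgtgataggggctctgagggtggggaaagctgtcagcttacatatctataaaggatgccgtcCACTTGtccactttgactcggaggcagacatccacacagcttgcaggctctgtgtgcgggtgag
Etv5: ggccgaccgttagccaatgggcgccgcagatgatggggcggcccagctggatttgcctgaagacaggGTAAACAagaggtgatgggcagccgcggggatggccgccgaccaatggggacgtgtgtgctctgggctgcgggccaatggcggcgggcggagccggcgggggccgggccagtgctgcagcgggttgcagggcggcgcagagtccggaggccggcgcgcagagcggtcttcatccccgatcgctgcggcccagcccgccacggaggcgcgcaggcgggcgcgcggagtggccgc
Lamp3: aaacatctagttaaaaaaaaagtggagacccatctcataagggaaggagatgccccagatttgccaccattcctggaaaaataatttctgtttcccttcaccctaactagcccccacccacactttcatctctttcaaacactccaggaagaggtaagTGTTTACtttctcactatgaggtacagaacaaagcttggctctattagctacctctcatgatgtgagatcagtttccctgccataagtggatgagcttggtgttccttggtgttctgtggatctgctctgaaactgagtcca

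Some AT2 nuclei also met the rule of another class. The AT1 rule was met by 5.15% and 8.62% in WT and 7.36% and 8.08% in Tg mice of them, and the rule of any of 5 other classes (AT1, ciliated, fibroblast, macrophage, EC) by 14.0% and 16.8% in WT and 13.6% and 13.6% in Tg mice. The nuclei of both the AT2 and the AT1 rule lay between the classes: Vegfa, which AT1 cells secrete for the capillaries, was at 287 and 224 against 321 and 223 CPM in them, at 128 and 98.2 against 72.6 and 69.2 CPM under the AT2 rule alone and at 783 and 460.4 against 513 and 336 CPM under the AT1 rule alone. Etv5 was at 649 and 457 against 476 and 595 CPM in them and at 193 and 165 against 56.7 and 142 CPM under the AT1 rule alone. Krt8, the marker of the transitional state, was not set apart in the nuclei of both rules, with 49.8 and 25.7 against 90.5 and 79.8 CPM in them and 37.3 and 32.1 against 85.9 and 77.8 CPM under the AT2 rule alone. The nuclei of both rules held medians of 1980 and 1982 UMIs in WT and 2939 and 3057 UMIs in Tg mice. Under the AT2 rule alone the medians were 2080 and 2041 against 2505 and 2838 UMIs. Whether the nuclei of both rules are doublets, cells between the types or nuclei with markers from the free RNA cannot be told apart.

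Summed over 8 AT1 markers, AT2 nuclei held 1023 and 1359 CPM in WT and 1339 and 1312 CPM in Tg mice, 77.4 to 96.2% of the free RNA level, where AT1 nuclei held 493 to 612%. The summed endothelial, fibroblast, macrophage, neutrophil, B cell, ciliated, pericyte, mesothelial and club cell lists were each below the free RNA in every mouse. Single markers were not all below it. Of the ciliated markers 2, and of the endothelial, fibroblast and pericyte markers 1 each, stood at or above it in both Tg mice. Of the neutrophil markers 1 did so in both WT mice. No marker was at 0 in any mouse. The T and NK cell list (107% in Tg replicate 1) and the cardiac list (102 to 167%) stood above the free RNA in AT2 nuclei of 1 and of all 4 mice.

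AT2 nuclei made up 18.4% and 16.6% in WT and 24.3% and 20.7% in Tg mice of the barcodes of 1500 or more UMIs, that is 17.5% ± 1.24 (SD, n = 2) and 22.5% ± 2.56 (SD, n = 2). Both Tg mice were above both WT mice by the rule, with a difference of 4.98 percentage points (two-sided exact permutation p = 0.33, the lowest that 2 against 2 mice allow). The rule asked for a higher marker share in the WT mice, as given above. Under 5 other settings that kept a threshold for each mouse the Tg mice were also higher on average, by 2.49 (2500 or more UMIs) to 11.3 points (5 of 8 markers and 3 times the free RNA share). With 1 common marker threshold the order turned to −3.21 points, and with the matched threshold it was −2.27 points (two-sided exact permutation p = 0.33 and 0.67). The direction thus turned where all mice had the same threshold.

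The genotype difference in AT2 nuclei was tested next, and more genes rose than fell in the Tg mice. UMIs were summed over the AT2 nuclei of a mouse, and edgeR's quasi-likelihood test with Benjamini-Hochberg adjustment compared the genotypes over 17369 genes. At an adjusted p below 0.05, 1033 genes passed (5.95%), of which 899 were higher (5.18%) and 134 lower (0.771%) with the transgene, and CPM did not overlap between the genotypes for 63.5% of all genes tested, lying higher in both Tg mice for 33.5% and lower for 30%. DESeq2 called 1545 higher and 683 lower. The matched nuclei gave 1495 genes (9.44%), 1310 higher (8.27%) and 185 lower (1.17%), and 901 of the 1033 genes were called there in the same direction. The count rested on single mice: edgeR called 1796 genes without WT replicate 1, 3002 without WT replicate 2, 363 without Tg replicate 2 and 0 without Tg replicate 1, where 2164 genes had an unadjusted p below 0.05. After subtraction of the estimated free RNA, edgeR called 0 genes, with 1522 at an unadjusted p below 0.05. P-values here measure the spread between these 4 libraries, and in sums over nuclei a larger part of free RNA and a change within AT2 cells were separated only as far as the free RNA levels and the subtraction go.

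The named genes are the largest changes among called genes without overlap of CPM between the genotypes. Their AT2 level also had to be at or above the free RNA in both mice of the higher genotype. Wdr17, which encodes a WD-repeat protein, rose most: it stood at 23.7 and 28.3 CPM in WT and 459.7 and 309 CPM in Tg mice, a log2 fold change of 3.90 ± 0.27 (SE, adjusted p = 0.0180 by edgeR). Its free RNA level was 39.4 and 25.9 against 142 and 205 CPM, and its level in AT1 nuclei was higher still, at 107 and 98.2 against 1736 and 953 CPM. The Wdr17 values of the genotypes lay far apart in every class, with log2 fold changes of 3.76 in AT1 nuclei and 2.63 in the free RNA.

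Vmn2r9, a gene of the vomeronasal receptor family with near-identical relatives among which reads may be split, was at a higher level in AT2 than in AT1 nuclei of every mouse. It stood at 2.71 and 3.23 CPM in WT and 30.1 and 18.4 CPM in Tg mice in AT2 nuclei and at 0.547 and 0.696 against 2.68 and 2.77 CPM in AT1 nuclei. Its log2 fold change in AT2 nuclei was 3.04 ± 0.34 (SE, adjusted p = 0.0222 by edgeR). In AT1 nuclei it was 2.10 (edgeR adjusted p = 0.0668), and the difference between the classes was 0.87 (edgeR adjusted p = 0.685). In AT1 nuclei both Tg mice were also above both WT mice, and the share of all genes that did so there was not counted. The AT1 levels of Vmn2r9 rest on few UMIs. The AT1 sums held only 5486158 and 8625091 UMIs of all genes in WT and 6723582 and 9010760 UMIs in Tg mice.

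Ret, the receptor tyrosine kinase of the GDNF family ligands, was also an AT2 gene by level, 2.88 to 8.09 times its level in AT1 nuclei. It stood at 5.72 and 6.34 CPM in WT and 34.9 and 26.6 CPM in Tg mice, with 5.76 and 3.64 against 8.17 and 12.8 CPM in the free RNA. The log2 fold change was 2.35 ± 0.24 (SE, adjusted p = 0.0222 by edgeR), and the lowest Tg mouse was more than 4 times the highest WT mouse. Lrrc4, a synaptic adhesion protein that binds netrin-G2, had the second highest level among the risers. It stood at 30.9 and 36.9 CPM in WT and 263 and 185 CPM in Tg mice, with 23.0 and 15.8 against 31.0 and 62.1 CPM in the free RNA and a log2 fold change of 2.73 ± 0.24 (SE, adjusted p = 0.0222 by edgeR).

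Insyn2a, an inhibitory synapse factor, was at 8.90 and 8.24 against 69.9 and 47.0 CPM, with 4.68 and 3.50 against 6.98 and 10.8 CPM in the free RNA, and rose by 2.78 on the log2 scale. Neu2, the cytosolic sialidase, was at 5.34 and 6.84 against 36.5 and 25.6 CPM, with 4.50 and 5.04 against 5.95 and 10.3 CPM in the free RNA, and rose by 2.35. The other risers named by the rule were Lysmd4 (2.67), Leng9 (2.34), Gcnt7 (2.32) and 3 transcripts named as opposite-strand genes, Pard3bos1 (3.82), Rsf1os1 (2.66) and Far1os (2.64). Their edgeR adjusted p-values were between 0.0222 and 0.0226. All 12 risers were also higher in both Tg than in both WT mice in AT1 nuclei and in the free RNA, with log2 fold changes of 1.43 to 3.76 and 0.92 to 2.63. The share of all genes that did so in these classes was not counted, and in AT2 nuclei it was 33.5%. The risers were named for no overlap in the same mice, whose AT2 sums hold free RNA. With the free RNA subtracted none was called, and their log2 fold changes were 1.86 to 5.16, or 1.97 to 4.54 in the matched nuclei, beside 2.32 to 3.90 and 2.04 to 3.59 before subtraction. Wdr17 kept 22 and 107 against 2075 and 2656 UMIs of the matched nuclei and Lrrc4 180 and 397 against 2197 and 3081 UMIs. As the risers were named for an AT2 level at or above the free RNA in both Tg mice, UMIs had to be left there, and these values are a description.

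The genes called in AT2 nuclei had medians of the same sign in the other classes. In AT1 nuclei 436 of 15582 genes (2.8%) were called, 411 higher (2.64%) and 25 lower (0.16%), and in the other barcodes 582 of 20605 (2.82%), 556 of them higher (2.7%). In the free RNA 3883 of 15180 genes were called (25.6%). The 899 genes called higher in AT2 nuclei had a median log2 fold change of 2.37 there, of 2.15 in AT1 nuclei, of 2.14 in the other barcodes and of 2.12 in the free RNA. For the 134 genes called lower the medians were −1.35 in AT2 nuclei, −1.15 in AT1 nuclei, −1.03 in the other barcodes and −1.60 in the free RNA. Of the 1033 calls, 950 were tested in AT1 nuclei, 810 in the free RNA and all in the other barcodes. These values share their mice and the free RNA. The names of the called genes were also not a cross-section of the genes, a count chosen after the values were seen. Of 152 opposite-strand names (ending in os), 34 were higher (22.4%) and 0 lower, of 1797 predicted genes (Gm names) 315 were higher (17.5%) and 16 lower, and of 945 Rik names 95 were higher (10.1%) and 0 lower. Among the other 14475 genes 455 were higher (3.14%). The sources used here do not state how strand was used in counting. Whether reads counted for such a gene came from its partner on the opposite strand was not tested.

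Only 7 falling genes met the rule, and their changes were smaller. Inpp4b, a phosphoinositide phosphatase that dampens PI3K signaling, was at 501 and 512 CPM in WT and 224 and 303 CPM in Tg mice, a log2 fold change of −0.94 ± 0.19 (SE, adjusted p = 0.0463 by edgeR). Diaph3, a formin that nucleates actin filaments, was at 92.8 and 97.8 CPM in WT and 50.7 and 57.4 CPM in Tg mice and fell by 0.82 on the log2 scale (edgeR adjusted p = 0.0360). Slit3, a ligand of the Robo receptors, was at 80.0 and 85.5 CPM in WT and 49.7 and 47.9 CPM in Tg mice and fell by 0.76 (edgeR adjusted p = 0.0417). That the Tg mice were below both WT mice without overlap was a condition of naming.

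Greb1l fell by 0.88, Isoc2a by 0.85 and Tmem39a by 0.78 on the log2 scale. These 6 genes were lower in the free RNA of the Tg mice as well, with log2 fold changes of −2.12 to −0.91, and all 6 stood at or above the free RNA in AT2 nuclei of every mouse. None of the 6 was called after subtraction of the free RNA, at −0.96 to −0.23, or without doublets by cxds, at −0.91 to −0.67, and with a common marker threshold Diaph3 and Slit3 were called and the other 4 were not.

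**Figure D3:**
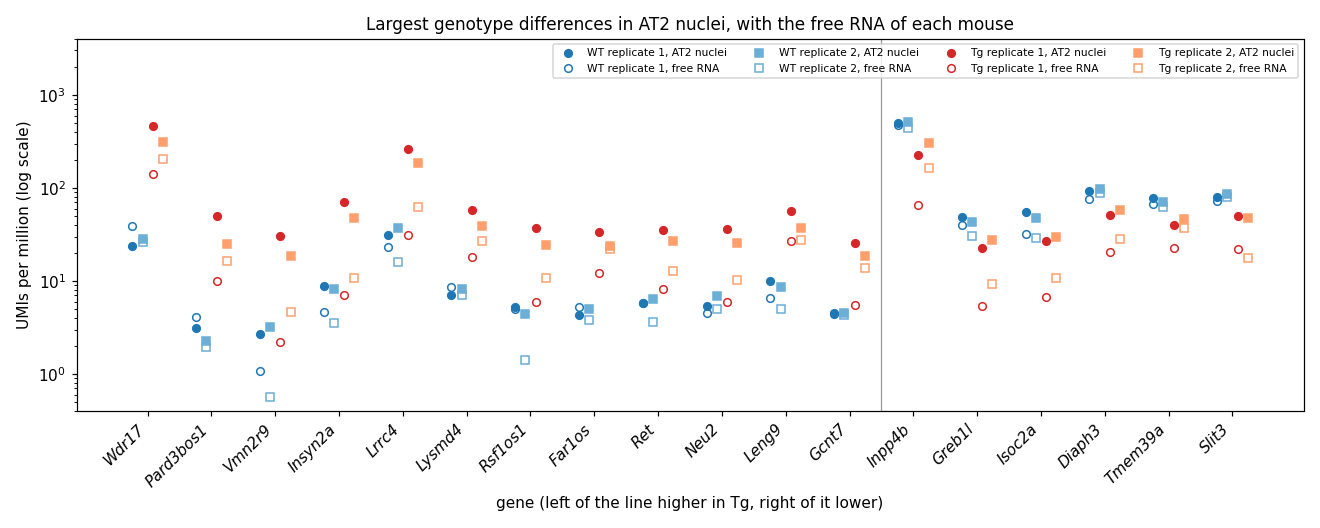
Levels (CPM, log axis) of the 12 most increased genes and of 6 decreased genes in AT2 nuclei (filled) and in the free RNA (open) of each mouse. By the conditions of naming, both Tg mice lie above both WT mice and above their own free RNA to the left of the line. To the right both Tg mice lie below both WT mice, also a condition of naming.

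The gene lists of AT2 biology were described by counts, beside the 5.18% higher and 0.771% lower of all genes. At an unadjusted p below 0.05 edgeR passed 29.2% of all genes, and DESeq2 called 12.8%, the shares to read the counts of the lists against. Of 20 genes of surfactant proteins and lamellar bodies, 1 was higher and 0 lower, with a median log2 fold change of 0.15 beside 0.01 for all genes. The called gene was Sftpc, whose levels are given above, with a log2 fold change of 2.20 ± 0.43 (SE, adjusted p = 0.0441 by edgeR). The 2 WT mice lay more than 2-fold apart, both Tg mice lay above both, and the log2 fold change in the free RNA was 3.28 (edgeR adjusted p = 0.0512). With the free RNA subtracted, no Sftpc UMI was left in the Tg mice, and the fitted value turned negative. Over other settings Sftpc was called in the same direction in 16, not called in 5 and in the other direction in 2.

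Sftpa1 stood at 447 and 630.2 CPM in WT and 1118 and 1037 CPM in Tg mice. Its log2 fold change was 1.01 ± 0.22 (SE, adjusted p = 0.0541 by edgeR) in all AT2 nuclei and of 1.06 ± 0.19 (SE, adjusted p = 0.0280 by edgeR) in the matched ones. After subtraction of the free RNA, at 1 fraction for all genes of a mouse, the order turned, with 1159 and 1854 against 0 and 0 UMIs left. In the matched nuclei 1061 and 1800 against 126 and 0 UMIs were left. Napsa, the aspartic protease that processes SP-B and SP-C precursors, stood at 74.8 and 104 CPM in WT and 216 and 152 CPM in Tg mice (log2 fold change 1.06, edgeR adjusted p = 0.0605). Sftpb was at 0.71 (edgeR adjusted p = 0.125), and Sftpd, Slc34a2, Lpcat1 and Ctsh were between 0.09 and 0.36. Over the whole list DESeq2 called 4 genes higher and 0 lower, and in the matched nuclei edgeR called 2 higher, Sftpc and Sftpa1, before the subtraction. Over the 20 lists of pathways the medians of the log2 fold change lay between −0.49 and 0.34.

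Lipid synthesis, on which surfactant depends, held 1 called gene of 33. Fabp5, a fatty acid binding protein, was at 42.8 and 62.9 CPM in WT and 108 and 109 CPM in Tg mice and rose by 1.05 on the log2 scale (edgeR adjusted p = 0.0405), with 74.1 and 85.0 against 281 and 225 CPM in the free RNA. Both Tg mice lay above both WT mice, and every AT2 level lay below the free RNA of its mouse. After subtraction 0 UMIs of Fabp5 were left in any mouse. Fasn, the fatty acid synthase, was at 67.7 and 65.0 CPM in WT and 74.4 and 84.8 CPM in Tg mice (log2 fold change 0.26, edgeR adjusted p = 0.274), Scd1 at 0.11 and Acaca at −0.38. Of 20 genes of sterol synthesis and uptake, edgeR called 0, with 3 at an unadjusted p below 0.05 and 0 by DESeq2.

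Of 24 epithelial and AT2 transcription factors edgeR called 0, with 2 at an unadjusted p below 0.05 and 1 by DESeq2. Nkx2-1, the lineage factor of lung epithelium, missed the threshold narrowly. It stood at 357 and 294 CPM in WT and 151 and 191 CPM in Tg mice, a log2 fold change of −0.94 ± 0.20 (SE, adjusted p = 0.050 by edgeR). Both Tg mice were below both WT mice, and the free RNA showed 317 and 307 against 113 and 155 CPM. In WT replicate 2 the AT2 level was thus below the free RNA. After subtraction 2014 and 1113 against 1498 and 2754 UMIs of Nkx2-1 were left, and it was not called. These counts are not scaled to sums that differ between the mice, and so do not compare levels. In the matched nuclei the log2 fold change was −1.02 ± 0.18 (SE, adjusted p = 0.0259 by edgeR), and in AT1 nuclei it was −1.25 ± 0.22 (SE, adjusted p = 0.0459 by edgeR). Etv5 was at −0.11, Foxa2 at −0.41, Cebpa at 0.43 and Gata6 at −0.02, all with edgeR adjusted p-values of 0.192 or more.

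Of 24 growth factor receptors and Fgf signaling genes edgeR called 0, with 4 at an unadjusted p below 0.05 and 2 by DESeq2. Fgfr2, the receptor that maintains AT2 cells, stood at 1286 and 1002 CPM in WT and 1252 and 1295 CPM in Tg mice (log2 fold change 0.15, standard error 0.23), well above its free RNA of 664 and 493 against 225 and 369 CPM. Of 22 genes of Wnt signaling in AT2 progenitors edgeR called 0, with 2 at an unadjusted p below 0.05 and 0 by DESeq2. Axin2, the target gene that marks Wnt-responsive AT2 cells, stood at 7.04 and 9.68 CPM in WT and 12 and 9.92 CPM in Tg mice (log2 fold change 0.40, edgeR adjusted p = 0.361). The genotypes did not overlap for Axin2 by a narrow margin.

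Of 24 genes of the transitional state between AT2 and AT1 cells, 4 were higher and 1 lower, and the median log2 fold change was 0.34. DESeq2 called 5 higher and 1 lower. Krt8 was at 37.9 and 31.6 CPM in WT and 86.3 and 78.0 CPM in Tg mice and rose by 1.24 on the log2 scale (standard error 0.18, edgeR adjusted p = 0.0286). Krt19, a further simple keratin, was at 22.0 and 22.2 CPM in WT and 85.5 and 74.3 CPM in Tg mice and rose by 1.86 (standard error 0.17, edgeR adjusted p = 0.0222). The WT mice lay close together in both keratins and the Tg mice well above them.

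Lgals3, which encodes galectin-3, was at 95.5 and 104 CPM in WT and 159.9 and 199 CPM in Tg mice and rose by 0.85 (edgeR adjusted p = 0.0408). Clu, the chaperone clusterin, was at 29.9 and 55.9 CPM in WT and 110.1 and 114 CPM in Tg mice and rose by 1.4 (edgeR adjusted p = 0.0441). In all 4 genes the AT2 level was below the free RNA of the same mouse, at 0.358 to 0.790 times it. The free RNA differed by log2 fold changes of 1.84 to 2.81, and AT1 nuclei by 0.98 to 1.96. After subtraction 0 UMIs of Krt8 and Clu were left in any mouse, 12 and 3 against 0 and 0 UMIs of Krt19 and 0 and 80 against 0 and 0 UMIs of Lgals3, and none of the 4 passed the filter on low counts. Over other settings Clu and Lgals3 were each called in 16 and not called in 5. Krt8 was called in 18 and not in 3, and Krt19 was called in 19 and not in 2.

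Tnip3, an inhibitor of NF-κB signaling, was at 55.5 and 25.4 CPM in WT and 4.77 and 7.97 CPM in Tg mice and fell by 2.67 (standard error 0.45, edgeR adjusted p = 0.0358), with the 2 WT mice more than 2-fold apart. After subtraction 61 and 44 against 50 and 62 UMIs of it were left, and the log2 fold change was −1.12 and not called. Among genes of the list that were not called, Cldn4 was at 0.928 and 0.668 CPM in WT and 1.12 and 1.12 CPM in Tg mice, Sfn at −0.74 and Krt18 at 0.30 on the log2 scale. Cldn4, a claudin used as a strict marker of the state, rested on 12 and 12 against 20 and 34 UMIs.

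**Figure D4:**
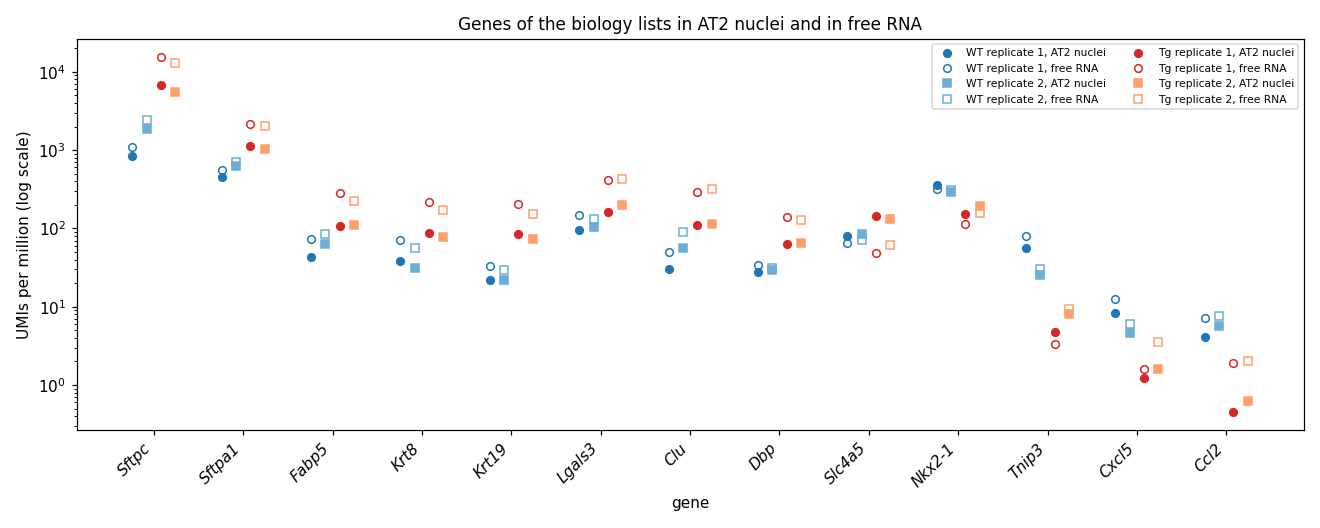
Levels (CPM, log axis) of 13 genes from the lists in AT2 nuclei (filled) and in the free RNA (open) of each mouse. For Krt8, Krt19, Lgals3, Clu, Fabp5 and Sftpc the free RNA of each mouse lies above its AT2 nuclei, while for Slc4a5 the Tg nuclei lie above their free RNA.

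Senescent ECs are known to release cytokines, so that genes of arrest and secretion were looked at in the epithelium. Of 7 CDK inhibitors edgeR called 0, with 1 at an unadjusted p below 0.05 and 0 by DESeq2. Cdkn1a, which encodes p21, stood at 28.6 and 39.5 CPM in WT and 39.8 and 62.9 CPM in Tg mice, a log2 fold change of 0.59 ± 0.25 (SE, adjusted p = 0.177 by edgeR), and at 0.91 ± 0.22 (SE, adjusted p = 0.0514 by edgeR) in the matched nuclei. Over 21 settings its value was 0.27 to 1.13 and was called in 7, among them 5 of 8 markers and 3 times the free RNA share (1.04, edgeR adjusted p = 0.0304). The second WT mouse and the first Tg mouse were almost equal, and the free RNA was 45.2 and 69.7 against 88.7 and 129.8 CPM, with 0 UMIs left after subtraction in any mouse. Cdkn2c, which encodes p18, stood at 7.19 and 8.35 CPM in WT and 3.99 and 4.05 CPM in Tg mice (log2 fold change −0.95, edgeR adjusted p = 0.0870). Cdkn1b was at −0.31, Cdkn1c at 1.28, Cdkn2a at −0.90, Cdkn2b at 0.48 and Cdkn2d at 0.07.

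Of 24 p53 target genes 1 was higher and 0 lower by edgeR, and 3 higher and 2 lower by DESeq2. Phlda3, an inhibitor of Akt, was at 3.17 and 4.62 CPM in WT and 10.1 and 11.3 CPM in Tg mice and rose by 1.45 (edgeR adjusted p = 0.0441). It lay below the free RNA in every mouse, with 0 UMIs left in any of them after subtraction. Mdm2, which targets p53 for degradation, was at 110.2 and 89.6 CPM in WT and 56.5 and 68.1 CPM in Tg mice (log2 fold change −0.69, edgeR adjusted p = 0.0772). After subtraction 223 and 206 against 375 and 613 UMIs of it were left. These counts are not scaled to the AT2 sums, which ran from 12926674 to 30345714 UMIs before subtraction, and so do not compare levels. Of 31 secreted cytokines and proteases of senescence 0 were higher and 2 lower by edgeR, and the median was −0.49. DESeq2 called 2 higher and 7 lower. Ccl2, the monocyte chemoattractant, was at 4.10 and 5.62 CPM in WT and 0.449 and 0.626 CPM in Tg mice and fell by 3.14 (edgeR adjusted p = 0.0251), and Cxcl5, a neutrophil chemoattractant, was at 8.20 and 4.62 CPM in WT and 1.24 and 1.58 CPM in Tg mice and fell by 2.17 (edgeR adjusted p = 0.0453). Both rested on few UMIs, with 53 and 101 against 8 and 19 UMIs for Ccl2, of which 0 were left in any mouse after subtraction, while 3 and 1 against 5 and 0 UMIs of Cxcl5 were left. Il1a stood at 9.36 and 9.01 CPM in WT and 2.02 and 4.28 CPM in Tg mice (log2 fold change −1.53, edgeR adjusted p = 0.0698). For these 3 genes both Tg mice were below both WT mice in AT2 nuclei and in the free RNA. In AT2 nuclei 30% of all genes tested did so, and the share in the free RNA was not counted.

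Of 29 interferon-stimulated genes 0 were higher and 1 lower by edgeR, and 0 higher and 4 lower by DESeq2. The median log2 fold change of the list was −0.37. Isg15 was at −0.41 and Irf9 at −0.37, neither called. Of 11 MHC class II genes, which AT2 cells express, edgeR called 0, with 2 at an unadjusted p below 0.05 and 1 by DESeq2. Cd74 stood at 215 and 551 CPM in WT and 414 and 996 CPM in Tg mice, with overlap between the genotypes, and the transactivator Ciita at 74.5 and 66.2 CPM in WT and 44.2 and 47.5 CPM in Tg mice (log2 fold change −0.62, edgeR adjusted p = 0.0692).

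Of 14 Notch genes tested, the pathway that the study followed, edgeR called 0, with 3 at an unadjusted p below 0.05 and 2 by DESeq2. The target gene Hes1 stood at 70.9 and 68.1 CPM in WT and 112 and 95.7 CPM in Tg mice, a log2 fold change of 0.58 ± 0.17 (SE, adjusted p = 0.0870 by edgeR), and was called in the matched nuclei (0.75, edgeR adjusted p = 0.0419). Its free RNA was 157 and 125 against 217 and 221 CPM, above the AT2 level in each mouse, and after subtraction 0 Hes1 UMIs were left in any mouse, in the matched nuclei as well. Hey1 was at −0.36, Hey2 at 0.09 and Heyl at 1.14. The ligand Jag1 stood at 89.8 and 69.9 CPM in WT and 40.6 and 50.1 CPM in Tg mice (log2 fold change −0.82, edgeR adjusted p = 0.0643). After subtraction the order of Jag1 turned, with 29 and 0 against 284 and 156 UMIs left. In the matched nuclei 113 and 24 against 165 and 211 UMIs were left, counts not scaled to sums that differ between the mice. Dll1 was at −1.46 (edgeR adjusted p = 0.0581), Jag2 at 0.07 and Dll4 at −0.24.

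Of 23 hypoxia response genes edgeR called 0, with 6 at an unadjusted p below 0.05 and 2 by DESeq2, at a median of 0.05. Epas1, which encodes HIF-2α, stood at 418 and 340.4 CPM in WT and 400 and 396 CPM in Tg mice and Vegfa at 136 and 108 CPM in WT and 95.3 and 83.5 CPM in Tg mice (log2 fold changes 0.07 and −0.45). Of 24 genes of the unfolded protein response 1 was higher, Sec61b of the translocon, which rose by 1.18 (edgeR adjusted p = 0.0463) and lay below the free RNA in every mouse, with 0 UMIs left in any of them after subtraction. DESeq2 called 1 higher and 1 lower in this list. Of 29 immediate early and heat shock genes edgeR called 0, with 11 at an unadjusted p below 0.05 and 4 by DESeq2. Of 10 shelterin and telomere genes edgeR called 0, with 1 at an unadjusted p below 0.05 and 0 by DESeq2, and the mouse gene Terf2 had a log2 fold change of −0.03.

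Of 20 circadian clock genes 1 was higher by edgeR, and 2 were higher and 2 lower by DESeq2. Dbp, an output gene of the clock, was at 27.8 and 29.2 CPM in WT and 63.6 and 64.3 CPM in Tg mice and rose by 1.17 (standard error 0.14, edgeR adjusted p = 0.0237), with 34.4 and 31.2 against 139.9 and 128 CPM in the free RNA. The replicates of each genotype were almost equal. After subtraction the order of Dbp turned, with 78 and 100 against 0 and 0 UMIs left, and 53 and 86 against 0 and 0 UMIs in the matched nuclei. Arntl, which encodes the clock activator BMAL1, stood at 28.1 and 31.2 CPM in WT and 16.4 and 18.5 CPM in Tg mice (log2 fold change −0.76, edgeR adjusted p = 0.0562). The time of day at which lungs were taken is not given in the sources used here.

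Of 22 genes of ion and fluid transport DESeq2 called 2 higher and 1 lower. By edgeR 1 was higher, Slc4a5, a sodium bicarbonate cotransporter, with 81.1 and 85.1 CPM in WT and 143 and 131 CPM in Tg mice and a log2 fold change of 0.72 ± 0.15 (SE, adjusted p = 0.0488 by edgeR). It was the only riser of the lists above its free RNA in AT2 nuclei of every mouse, 1.19 to 2.95 times, and the free RNA difference was −0.10. Over 23 other settings its log2 fold change was 0.49 to 0.97, called in 9 and not called in 14, among them a common marker threshold (0.0562), doublets left out (0.104) and library size scaling (edgeR adjusted p = 0.0511). Of 31 cell cycle genes 1 was lower, and DESeq2 called 0 higher and 2 lower. Kif11, the mitotic kinesin, was at 13.0 and 18.8 CPM in WT and 5.17 and 7.32 CPM in Tg mice and fell by 1.34 (edgeR adjusted p = 0.050, just below the threshold). Over other settings Kif11 was called in 10 and not called in 12, and 31 and 0 against 8 and 0 UMIs were left after subtraction. Mki67 stood at 13.9 and 43.0 CPM in WT and 19.9 and 24.3 CPM in Tg mice, with the WT mice 3-fold apart around both Tg mice.

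Markers of other cells moved with the genotype in the AT2 sums. The 9 club cell markers were summed to 11657 and 11089 CPM in WT and 42538 and 17464 CPM in Tg mice in AT2 nuclei and to 20738 and 17886 CPM in WT and 144010 and 51003 CPM in Tg mice in the free RNA, highest by far in Tg replicate 1. Of the mesothelial markers 2 of 5 were called higher, Msln (1.31) and Muc16 (1.18), and of the cardiac markers Myl7 (2.99), all below the free RNA in every mouse. Of the further lists, in which edgeR called 0 genes, the neutrophil (0.68, 3 of 5 at an unadjusted p below 0.05, 1 higher by DESeq2), pericyte and smooth muscle (0.42) and AT1 markers (0.18) had positive medians of the log2 fold change, and the macrophage (−0.23), fibroblast (−0.11) and the next 4 lists negative ones. The 8 endothelial markers were summed to 755 and 629 CPM in WT and 423 and 485 CPM in Tg mice, where edgeR called 0 (5 at an unadjusted p below 0.05, 3 lower by DESeq2), with a median log2 fold change of −0.49. The 7 T and NK cell markers were summed to 229 and 272 CPM in WT and 62.7 and 193 CPM in Tg mice, with a median of −0.89 and edgeR calling 0 (2 at an unadjusted p below 0.05, 0 by DESeq2). The 6 B cell markers, with a median of −1.26, and the 9 ciliated markers, with −0.78, overlapped between the genotypes in their sums, at 60.1 and 318 against 52.7 and 73.0 CPM and 989.7 and 548 against 551 and 375 CPM. With nuclei that held markers of another class left out 29 of 32 named genes were called, and with doublets by cxds left out 18.

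The share of nuclei with a UMI was compared after each nucleus was thinned to 1500 UMIs, beside AT1 nuclei. At this depth Krt8 was found in 5.87% and 5.07% in WT and 12.3% and 12% in Tg mice of AT2 nuclei, and in AT1 nuclei in 6.28% and 5.82% against 13.2% and 13.0%. The difference of 6.66 percentage points was larger than the spread within either genotype (two-sided exact permutation p = 0.33), and the AT2 share was below that of AT1 nuclei in every mouse. AT1 nuclei are no reference without Krt8, and these shares hold the free RNA. No Krt8 was left in the AT2 sums after subtraction, which leaves 0 UMIs of any gene below the fraction subtracted. How much of these shares is free RNA was not tested. Without thinning, Krt8 was in 8.74% and 8.14% against 21.2% and 22.1% of AT2 nuclei. Hes1 was found in 11.5% and 10.7% in WT and 14.5% and 13.7% in Tg mice (unthinned 16.2% and 16.9% against 23.5% and 25.8%), again below AT1 nuclei in every mouse, with 12.8% and 11.9% against 20.2% and 18.7%.

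Axin2, low as it was, stood above the AT1 nuclei in every mouse. It was found in 0.989% and 1.5% in WT and 1.81% and 1.56% in Tg mice of AT2 nuclei (unthinned 1.76% and 2.60% against 3.39% and 3.19%) and in 0.474% and 0.554% against 0.530% and 0.856% of AT1 nuclei. In AT2 nuclei the 2 genotypes were 1.24% ± 0.359 (SD, n = 2) and 1.68% ± 0.174 (SD, n = 2), a difference of 0.441 points with a two-sided exact permutation p of 0.33. The 95% exact interval was 1.21 to 1.82% in WT replicate 2 and 1.32 to 1.84% in Tg replicate 2, for counting error only, so that these mice were not told apart at this depth.

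Cdkn1a was found in 4.70% and 6.63% in WT and 5.88% and 9.62% in Tg mice of AT2 nuclei and 4.21% and 7.10% against 6.50% and 12.9% of AT1 nuclei (unthinned in AT2 7.17% and 10.3% against 10.5% and 18.3%), and the genotypes overlapped (two-sided exact permutation p = 0.67). Mki67 was in 2.00% and 7.13% in WT and 2.91% and 3.90% in Tg mice and Top2a in 2.93% and 6.39% in WT and 3.16% and 3.95% in Tg mice, with WT replicate 2 above and WT replicate 1 below both Tg mice (two-sided exact permutation p = 1 for each). AT1 nuclei held like shares, 2.49% and 6.92% against 2.84% and 4.79% for Mki67 and 2.79% and 6.68% against 3.90% and 5.03% for Top2a. Unthinned, Mki67 was in 3.43% and 10.9% against 5.26% and 7.36% and Top2a in 4.14% and 9.48% against 5.28% and 8.04% of AT2 nuclei. Cd74 was in 29.5% and 59.4% in WT and 48.4% and 79.1% in Tg mice (unthinned 41.6% and 75.5% against 67.7% and 94.7%; AT1 nuclei 24.4% and 57.2% against 39.7% and 80.6%), and the mice of each genotype differed more than the genotypes did.

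The club cell gene Scgb1a1, which neither class should express, was found in 100% and 100% in WT and 100% and 100% in Tg mice of AT2 nuclei after thinning (unthinned 100% and 100% against 100% and 100%). Sftpc was found in 71.3% and 92.6% in WT and 100% and 99.8% in Tg mice (unthinned 85.1% and 97.9% against 100% and 100%), and in AT1 nuclei, which should lack it, in 56.8% and 87.2% against 99.3% and 99.6%.

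Whether the genotype difference was the same in AT2 and AT1 nuclei was tested in 1 model of both classes, in which every mouse had its own level. Of 17025 genes 89 (0.523%) differed at an edgeR adjusted p below 0.05, 78 with the more positive change in AT2 nuclei (0.458%) and 11 with the more negative (0.0646%). Of the 8 rule genes 6 were among the 78, so that part of them had AT2 levels set by the rule itself. Over the 78 genes the median log2 fold change was −0.02 in AT2 nuclei, −0.99 in AT1 nuclei and −1.15 in the free RNA, and 76 of them were at a higher level in AT2 than in AT1 nuclei of all 4 mice. With the matched threshold, 9 of the 78 were called in the same direction and their median difference was 0.27. The count was 167 with the matched threshold (1.05%), 105 of them more positive (0.663%) and 62 more negative (0.391%) in AT2 nuclei, and without single mice it was 117 (WT replicate 1), 167 (WT replicate 2), 257 (Tg replicate 1) and 360 (Tg replicate 2).

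Tmem132d, a single-pass membrane protein, stood at 711 and 851 CPM in WT and 785 and 817 CPM in Tg mice in AT2 nuclei and at 187 and 198 against 51.3 and 105 CPM in AT1 nuclei. Its log2 fold change was 0.04 (standard error 0.18) in AT2 nuclei and −1.30 (standard error 0.29) in AT1 nuclei, a difference of 1.41 (standard error 0.21, edgeR adjusted p = 0.0207). The AT2 levels of the genotypes overlapped, and the AT1 levels of the Tg mice were below those of the WT mice. In the matched nuclei the difference was 0.23 (edgeR adjusted p = 0.605).

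Ros1, an orphan receptor tyrosine kinase, stood at 45.4 and 41.1 CPM in WT and 44.9 and 41.1 CPM in Tg mice in AT2 nuclei and at 12.9 and 15.0 against 2.68 and 5.99 CPM in AT1 nuclei, a difference of the genotype changes of 1.65 (edgeR adjusted p = 0.0207). Adam19, a membrane metalloprotease, stood at 622 and 623 CPM in WT and 658 and 669 CPM in Tg mice and at 191 and 203 against 52.4 and 110.4 CPM, a difference of 1.45 (edgeR adjusted p = 0.0207). For the netrin receptor gene Unc5d and the zinc finger gene Zfp385b the differences were 1.41 and 1.38 (edgeR adjusted p = 0.0229 and 0.0207). In each of the 4 genes the matched nuclei gave a smaller difference that was not called, 0.56 for Ros1, 0.40 for Adam19, 0.40 for Unc5d and 0.51 for Zfp385b. With the free RNA subtracted from both classes no gene at all was called, these 5 included. The differences turned to −0.63 for Unc5d and −0.055 for Tmem132d.

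Of the genes with the more negative change in AT2 nuclei, the one that met the rule for naming was Atp6v0a4, a subunit of the proton pump that acidifies vesicles. It stood at 39.8 and 46.5 CPM in WT and 49.7 and 34.1 CPM in Tg mice in AT2 nuclei and at 25.9 and 28.6 against 45.5 and 39.7 CPM in AT1 nuclei, a difference of −0.70 (standard error 0.13, edgeR adjusted p = 0.0397). The AT2 levels of the genotypes overlapped, while both Tg mice were above both WT mice in AT1 nuclei. This difference was also called in the matched nuclei, at −0.91 (edgeR adjusted p = 0.0112), as were 9 of the 11 genes of this direction, with a median of −0.91. Over all other settings the difference of Atp6v0a4 was called in 7 and not called in 6.

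**Figure D5:**
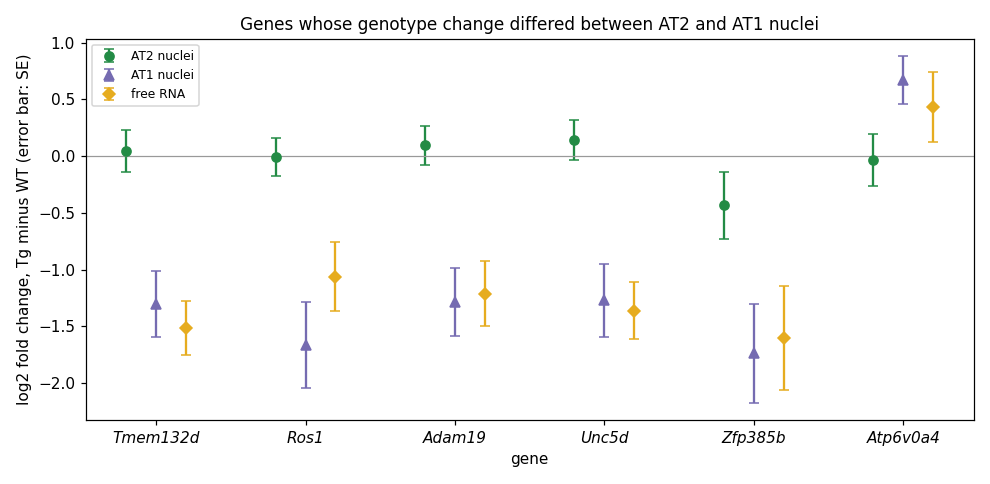
Log2 fold changes between the genotypes (Tg minus WT, error bars give the standard error) of the 6 genes named from the comparison of classes, in AT2 nuclei, AT1 nuclei and the free RNA. In 5 genes the AT2 nuclei lie nearer to 0 than the AT1 nuclei and the free RNA, which are both negative, and in Atp6v0a4 the AT1 nuclei are positive.

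The AT2 program as a whole was described by the genes highest in these nuclei. In all, 147 genes were at least 2 times higher in AT2 nuclei than in the other barcodes of every mouse. Of these 14 were higher and 0 lower in AT2 nuclei of the Tg mice, beside 5.18% and 0.771% of all genes, and their log2 fold changes ran from −2.34 to 3.13 with a median of 0.17 (−0.07 in the matched nuclei). In the free RNA, 107 of them were tested, 81 had a negative value and 36 were called lower, where 11% of all genes were called lower, and the median was −0.73. In AT1 nuclei the median of the 147 genes was −0.65. These medians are a description, since the nuclei were chosen by AT2 markers and the 147 genes by their level in the same nuclei. Against the other barcodes, the genotype change differed in AT2 nuclei for 790 of 20080 genes (3.93%, but 0 with the matched threshold, where 899 had an unadjusted p below 0.05), and against the free RNA for 5226 of 17465 (29.9%).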

How the data were processed

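Nuclei of lungs were profiled by droplet single-nucleus RNA-Seq in 4 libraries, 2 of each genotype. The values deposited by the authors were UMI counts per gene and barcode, not normalized and without removal of empty droplets, and the submitters' processing notes name Cell Ranger 6.1.1 and build mm10. The study's methods state that intronic reads were counted. Each matrix held 32285 genes and 125261739 to 182014706 UMIs. From these counts, AT2 and AT1 nuclei were chosen by the rule in the report and summed per mouse, since nuclei are not replicates. No doublet was removed. The members and the gene lists were chosen with earlier results of these data known.

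Genes with low sums were left out (filterByExpr, minimum count 10), sums were scaled by TMM, and edgeR's quasi-likelihood test was read at a Benjamini-Hochberg adjusted p below 0.05, in the same way for AT2, AT1, other barcodes and free RNA. Classes were compared in models with a term for each mouse. The genes named were up to 12 called genes in each direction, ranked by fold change, with no overlap of CPM, 20 or more CPM in the higher genotype and an AT2 level at or above the free RNA in both of its mice. Predicted genes, rule genes, other cells' markers and sex-linked genes were left out of them. The 12 genes most enriched in AT2 nuclei, up to 5 genes in each direction from the comparison with AT1 nuclei, called members of the lists and genes the study followed were also named, and further list members given as context were chosen after their values were seen. Some genes that met these conditions are not reported here. For shares of nuclei with a UMI, each nucleus was thinned to 1500 UMIs, and intervals are exact binomial at 95%. The tests were tried on simulated counts with known changes. The genotype test of AT2 nuclei recovered 79% of 4-fold but only 27.5% of 2-fold changes. A list with 0 called genes can therefore still hold 2-fold changes. For the difference between AT2 and AT1 nuclei, 83.5% and 63% were recovered. False calls made up 1.18% to 9.09% of the calls, the most at 2-fold in the comparison of AT2 nuclei with the other barcodes.

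Alternatives were DESeq2, no filter, no TMM, other thresholds, a cxds doublet score that left out 23.9% to 47.8% of the AT2 nuclei of a mouse, removal of nuclei with markers of another class, a replicate block, each mouse left out, and subtraction of the estimated free RNA. All alternatives with the matched threshold, and the stricter rule at 2500 UMIs, were added after seeing the data. Tools were matplotlib 3.10.9, SciPy 1.17.1, pandas 2.3.3, NumPy 2.4.6 and Python 3.11.15 beside data.table (1.17.8), DESeq2 1.42.0, limma 3.58.1, edgeR 4.0.16 and R 4.3.3.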

Additional observations from a re-analysis of the deposited data

Results flagged for a closer look

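The change between the genotypes in AT2 nuclei differed from that in another class, by a test of the difference itself (edgeR, adjusted p below 0.05), for 89 genes against AT1 nuclei, for 790 genes against the other barcodes and for 5226 genes against the free RNA. DESeq2 called 92 genes in the first comparison and 566 in the second, and with the matched threshold edgeR called 167 in the first and 0 in the second (899 at an unadjusted p below 0.05). Of the 89 genes, 6 are markers of the rule. The named differences against AT1 nuclei were 1.65 for Ros1, 1.45 for Adam19, 1.41 for Tmem132d, 1.41 for Unc5d, 1.38 for Zfp385b and −0.70 for Atp6v0a4, on the log2 scale. In the first 5 genes the AT1 level of both Tg mice was below that of both WT mice, and in Atp6v0a4 above it. The free RNA of the same mice differed by −1.06 for Ros1, −1.21 for Adam19, −1.52 for Tmem132d, −1.36 for Unc5d, −1.60 for Zfp385b and 0.43 for Atp6v0a4. Its part in these differences was not tested beyond the subtraction. After subtraction no gene at all was called, these 6 included, and Unc5d (−0.63) and Tmem132d (−0.055) turned.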

How the results depend on the processing

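Limits come first. There were 2 mice of each genotype, the estimated free RNA made up more than 0.5 of the UMIs of the AT2 nuclei in every mouse, and depth and marker threshold moved with the genotype. Of 38 named and called genes, 34 had no value in the other direction under the settings in which they were tested. Of their 795 values, 589 were in the same direction and called, 200 in the same direction and not called and 6 in the other direction. Of 32 such genes of the genotype test of AT2 nuclei, 31 were called with the matched threshold, 32 with DESeq2, 13 without Tg replicate 2 and 0 without Tg replicate 1. With the free RNA subtracted 22 of the 32 kept enough UMIs to be tested, 23 with the matched threshold, and 0 were called.

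For the genotype difference in AT2 nuclei, the 1033 genes of the test as reported became 2228 with DESeq2, 4062 with no filter on low counts and 0 with the free RNA subtracted (1522 at an unadjusted p below 0.05, of fewer genes tested). Leaving out a mouse gave 0 (Tg replicate 1) to 3002 (WT replicate 2). With the matched threshold the count was 1495, or 2096 with DESeq2, 0 with the free RNA subtracted (1561 at an unadjusted p below 0.05), and 4 (without Tg replicate 1) to 2577 (without WT replicate 2) when a mouse was left out. The cause of these shifts was not tested. Same-numbered mice of the 2 genotypes deviated from their group means with a correlation of 0.23, over 2 pairs that share only a number. With the replicate number as a replicate block 3800 genes were called, 3067 with the matched threshold, and 3054 in the genotype difference in AT1 nuclei.

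For the genotype difference in AT1 nuclei, the 436 genes became 1532 with DESeq2, 1186 with the matched threshold, 3367 with no filter, and 0 (without Tg replicate 1, with 1856 at an unadjusted p below 0.05) to 2130 (without WT replicate 2) when a mouse was left out. For the difference between AT2 and AT1 in the genotype change, the 89 genes became 439 with a common marker threshold, 379 without doublets by cxds, 167 with the matched threshold, 330 with no filter, 215 without nuclei with markers of another class, 33 with 5 of 8 markers and 3 times the free RNA share, 302 at 2500 or more UMIs, 0 with the free RNA subtracted (896 at an unadjusted p below 0.05), and 117 (without WT replicate 1) to 360 (without Tg replicate 2) when a mouse was left out. For the difference between AT2 and the other barcodes in the genotype change, 790 became 0 with the matched threshold (899 at an unadjusted p below 0.05), 0 with the free RNA subtracted (923 at an unadjusted p below 0.05), 1555 with no filter, and 320 (without WT replicate 1) to 952 (without Tg replicate 2). For the difference between AT2 and the free RNA in the genotype change, 5226 became 2984 with DESeq2, and 1880 (without WT replicate 1) to 6959 (without Tg replicate 2). All counts are of edgeR unless DESeq2 is named, and DESeq2 was not run on subtracted counts.

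A few values turned with the free RNA subtracted. The 12 named risers, chosen for levels at or above the free RNA in the Tg mice, were at 1.86 to 5.16 (1.97 to 4.54 with the matched threshold). For Sftpc, genotype difference in AT2 nuclei, the value became −13.91 (−14.55 with the matched threshold), and for Dbp, genotype difference in AT2 nuclei, −10.21 (−9.56). The large values of Sftpc and Dbp come from sums at 0 after subtraction and depend on the prior count. The difference between AT2 and AT1 became −0.055 for Tmem132d and −0.63 for Unc5d with the free RNA subtracted, and the share of AT2 nuclei −3.21 with a common marker threshold and −2.27 percentage points with the matched threshold.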
